A study of Arabidopsis thaliana with 12 samples.

Results

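The genes examined were 26 *Arabidopsis* members of the ATP-binding cassette (ABC) transporter family, each measured by 1 probe set, out of 15028 genes for which a probe set had a single gene name. A probe set was taken as a member when its only gene symbol was ABC, a subfamily letter from A to I and a number. The annotation of the array platform gave no probe set such a symbol, and all 26 were named through the study's own lists of genes over-expressed (11 members) or under-expressed (15 members) after 5-AC, by locus code and the RefSeq symbol of that locus. The members were therefore chosen for a difference between 5-AC and Ws on these same arrays, so every difference that uses the 5-AC arrays is given below as a description of the members without a test. The Ws arrays entered these lists as well, so the tests of *ddm1* and TSA against Ws are not independent of how the members were named. A list of under-expressed genes favours high Ws values, and one of over-expressed genes low Ws values. Only the difference between TSA and *ddm1* uses the arrays of neither group. Its SE and p rest on a spread estimated over all 12 arrays, those of Ws and 5-AC included. RefSeq gives an ABC symbol to 124 genes, of which the other 98 were not analysed here, and 2 more probe sets that each stand for several loci were left out. The members belong to subfamilies ABCA (1 gene), ABCB (3), ABCC (3), ABCD (1), ABCE (1), ABCF (1), ABCG (11) and ABCI (5).

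Total RNA from whole seedlings of ecotype Ws was hybridised to Affymetrix ATH1 arrays, 3 arrays in each of 4 groups. The control group was wild type with the solvent DMSO (called Ws), and wild type was treated with 5-AC (5-aza-2′-deoxycytidine, a cytosine analogue that blocks DNA methyltransferases) at 20 mg/L or with trichostatin A (TSA, an inhibitor of histone deacetylases) at 2.5 mg/L. The fourth group was a *ddm1* mutant with DMSO, 1 T-DNA insertion line in Ws that was backcrossed and selfed, in a gene for a chromatin remodelling factor needed for DNA methylation. Seedlings grew in liquid 0.5X MS medium with 1% sucrose under constant light at 21 °C, inhibitors were given from 24 h, the medium was renewed after 5 days, and the labels give an age of 10 days, whereas the methods name a later harvest.

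Values are log2 gcRMA signals, so a difference of 1 is a 2-fold change, and because probes differ in brightness they were compared between groups and not between genes. Arrays of 1 group correlated at r = 0.961 to 0.987 over the 17129 probe sets tested, and array medians lay between 4.92 and 5.03. The probe set of *DDM1* read 4.64 to 5.21 in Ws, 5.22 to 5.51 after TSA, 7.04 to 7.53 after 5-AC and 7.59 to 7.91 in *ddm1*. The log2 difference of *ddm1* from Ws was 2.82 ± 0.18 (SE). The part of the transcript that this probe set measures relative to the insertion is not given in the sources used here. It therefore does not check the label of the mutant. Whole seedlings were sampled, and fewer cells of a type and less RNA per cell cannot be told apart.

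ABC proteins carry nucleotide-binding domains that hydrolyse ATP, and most use it to move lipids, hormones, metal complexes or secondary metabolites across a membrane. In plants the ABCG subfamily is large. Its half-size members export precursors of cuticle and suberin, the lipid barriers of shoot surfaces and of the root, and its full-size members, also called pleiotropic drug resistance (PDR) proteins, move hormones, monolignols and defence compounds. ABCB proteins include auxin exporters, ABCC proteins (also called MRP proteins) load conjugates into the vacuole, ABCE and ABCF proteins are soluble and work with ribosomes or in translational control, and ABCI is a mixed group of small, mostly organelle-targeted components.

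The number of ABC genes called was 0 of 26 in *ddm1* and 9 of 26 after TSA. In *ddm1* no member was called against Ws by limma (adjusted p below 0.05 over all probe sets tested), beside 1.57% of all probe sets tested (1.35% higher and 0.216% lower). The methods' t-test called 0 members, beside 36 higher and 0 lower of all 17129 probe sets. The unadjusted p was below 0.05 for 4 members. The share of all probe sets with an unadjusted p below 0.05 was not counted, so nothing is read from these 4. After TSA 9 members were called against Ws, 2 higher and 7 lower, beside 14.5% of all probe sets (7.14% higher and 7.35% lower), and 8 of the 9 were ABCG genes. Compared directly with *ddm1*, a comparison added after the data had been seen because neither group's arrays entered the lists through which members were named, TSA gave 2 members higher and 6 lower, beside 17.9% of all probe sets (8.53% higher and 9.33% lower). After 5-AC 11 members stood above and 15 below Ws, the split that the lists fix, and no array of 5-AC overlapped with one of Ws for any of the 26. Of all probe sets tested, 57.2% were called between 5-AC and Ws (30.9% higher and 26.3% lower) and 62.5% did not overlap.

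**Figure D1:**
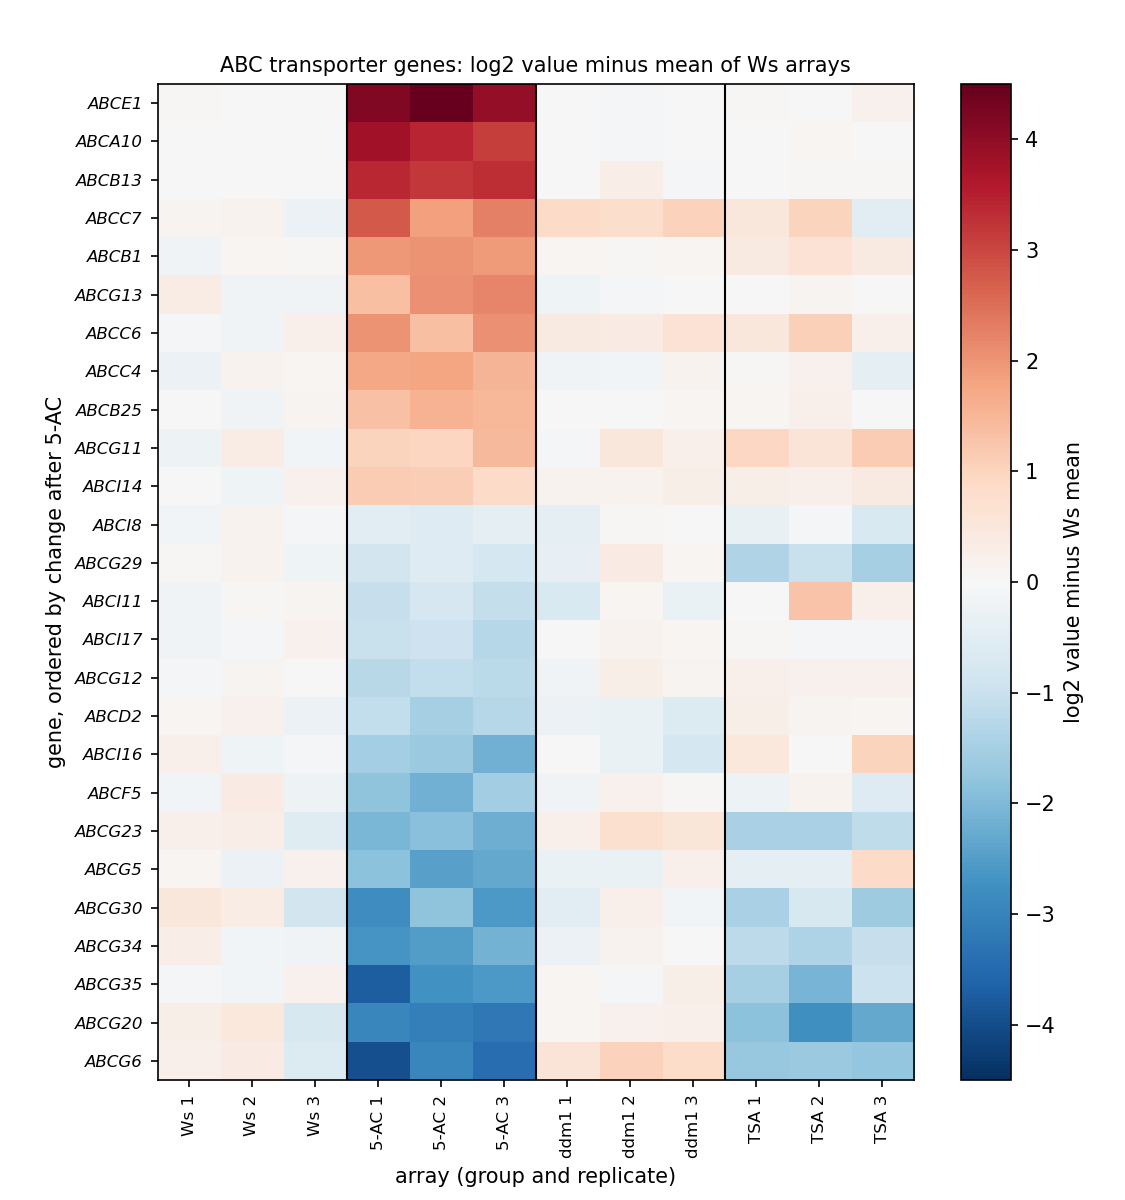
Log2 value minus the mean of the 3 Ws arrays for each of the 26 ABC genes (rows, ordered by the difference between 5-AC and Ws) in each of the 12 arrays (columns, by group and replicate). Red is above and blue below the Ws mean, the colour scale being in log2 units. The 5-AC columns hold 11 rows above and 15 below Ws, the *ddm1* columns stay close to Ws, and in the TSA columns the blue cells are mostly in ABCG rows at the bottom.

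The half-size transporters *ABCG6* and *ABCG20*, which are needed for suberin in roots and seed coats, were low after TSA and low after 5-AC. *ABCG6* measured 6.44, 6.58 and 5.58 in the 3 Ws arrays, 4.50, 4.53 and 4.46 after TSA, 2.24, 3.26 and 2.77 after 5-AC, and 6.77, 7.23 and 7.03 in *ddm1*. The TSA values lay below every Ws and *ddm1* value and above every 5-AC value. *ABCG6* was 3.26-fold lower after TSA than in Ws (log2 -1.71 ± 0.29, SE, limma adjusted p = 0.0031) and 5.7-fold lower than in *ddm1* (-2.51 ± 0.29, adjusted p = 0.00015).

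*ABCG20* measured 5.65, 5.86 and 4.65 in Ws, 3.55, 2.64 and 3.08 after TSA, 2.46, 2.33 and 2.18 after 5-AC, and 5.47, 5.57 and 5.62 in *ddm1*. Again the TSA arrays lay between the controls and 5-AC without overlap. It fell 4.91-fold after TSA against Ws (log2 -2.30 ± 0.30, adjusted p = 0.00065), the widest change among the 26 in that comparison, and 5.5-fold against *ddm1* (-2.46 ± 0.30, adjusted p = 0.00021). After 5-AC *ABCG20* was near the floor, meaning below the 25th percentile of all probe sets on each array of the group, so the size of its difference from Ws there depends on the background correction and is not given. In *ddm1* *ABCG6* stood 0.81 ± 0.29 above Ws, with no overlap of arrays, but was not called (adjusted p = 0.49), and *ABCG20* differed from Ws by 0.16 ± 0.30.

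Suberin genes other than transporters were taken from a list of 10, of which 5 had a named probe set, every one named through the list of genes under-expressed after 5-AC. All 5 were called lower after TSA against Ws, beside 7.35% of all probe sets tested. Their median was -1.59 against 0.02 over all probe sets tested. Against *ddm1* all 5 were called lower as well, beside 9.33%, with a median of -1.86 against 0.05. The share called lower among all genes of the list that named them was not counted. *GPAT5*, a glycerol-3-phosphate acyltransferase of suberin, changed by -2.10 ± 0.34 against Ws (adjusted p = 0.0024), and *FAR4*, a fatty acyl-CoA reductase that makes suberin alcohols, by -2.01 ± 0.29 (adjusted p = 0.0012). *CYP86B1*, a hydroxylase of very long-chain acids, changed by -1.59 ± 0.32 (adjusted p = 0.0076) and the reductase *FAR5* by -1.22 ± 0.34 (adjusted p = 0.038). *ASFT*, the feruloyl transferase of suberin, which falls outside the naming rule and was named after its values were seen, changed by -0.68 ± 0.20 (adjusted p = 0.048). The Ws calls of *FAR5* and *ASFT* were sensitive to single arrays: *FAR5* lost its call without any of 4 arrays (adjusted p 0.035 to 0.14 over the 6 omissions) and *ASFT* without any of the 6 (0.055 to 0.16), and against *ddm1* *ASFT* lost its call without TSA 1 (-0.77, adjusted p = 0.052) or *ddm1* array 2 (-0.73, adjusted p = 0.06). No gene of the 5 was called in *ddm1*, and after 5-AC they stood below Ws by log2 differences from -1.16 (*ASFT*) to -3.03 (*GPAT5*).

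Markers of root tissues were called after TSA in part. Over 5 root markers the mean log2 value per array was 7.34 to 8.18 in Ws, 7.70 to 7.89 in *ddm1*, 6.45 to 6.72 after TSA and 4.28 to 4.70 after 5-AC, where 2 of the 5 were near the floor. After TSA 2 of the 5 were called lower than in Ws, beside 7.35% of all probe sets tested. They were the root hair gene *COBL9* (-2.06 ± 0.26, adjusted p = 0.00048) and the endodermal gene *CASP1* (-1.63 ± 0.36, adjusted p = 0.012). These are the markers that were named through the list of genes under-expressed after 5-AC, and the other 3 were named by the platform. The *CASP1* call against Ws was lost without TSA array 2 (-1.50, adjusted p = 0.051) or without Ws array 1 (-1.48, adjusted p = 0.052). The root hair expansins *EXPA7* (-0.76 ± 0.32) and *EXPA18* (-0.58 ± 0.38) and the root glucosidase gene *PYK10* (-0.25 ± 0.19) were not called, but *EXPA7* passed without Ws 2 (-1.12, adjusted p = 0.03). Against *ddm1* the same 2 of 5 were called lower after TSA, beside 9.33% of all probe sets. *COBL9* changed by -2.16 (adjusted p = 0.00018) and *CASP1* by -2.10, called under every omission (adjusted p 0.0067 to 0.012). *EXPA7* (-0.89), *EXPA18* (-0.65) and *PYK10* (-0.20) were not called against *ddm1*. The leaf marker *RCA*, the only one of 5 with a name, read 13.5 to 13.9 in Ws, 13.7 to 13.9 after TSA and 10.8 to 12.8 after 5-AC. The anther marker *A9* was near the floor in all 4 groups, and no seed marker was named. The part of root tissue in the ABCG values was not tested.

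**Figure D2:**
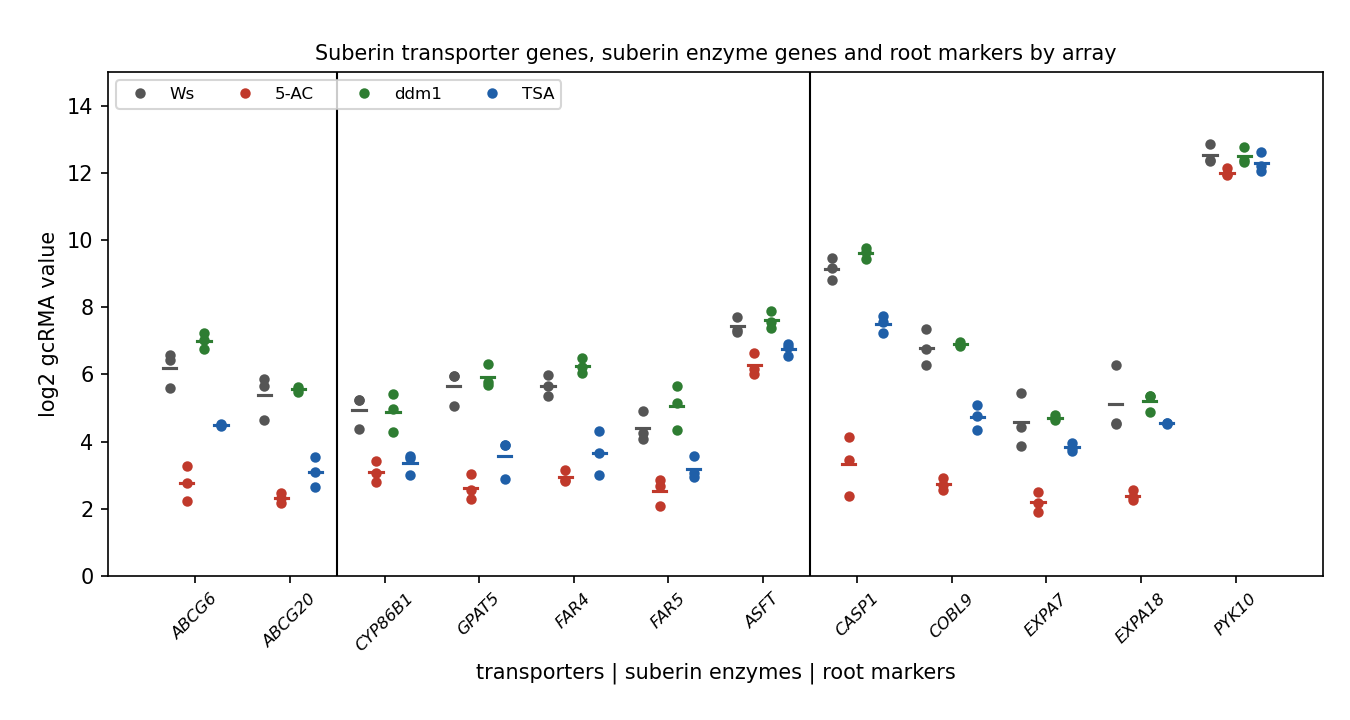
Log2 gcRMA value of each array (points, 3 per group) with the group mean (short line) for the suberin transporter genes *ABCG6* and *ABCG20*, 5 suberin enzyme genes and 5 root markers, in Ws, 5-AC, *ddm1* and TSA. For *ABCG6* the TSA points lie between 4.46 and 4.53, under all Ws points (5.58 to 6.58) and over all 5-AC points (2.24 to 3.26), whereas the *PYK10* points of all 4 groups lie between 11.9 and 12.9.

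*ABCG23*, another half-size gene, was 4.20, 4.30 and 3.46 in Ws, 2.55, 2.54 and 2.85 after TSA, 1.94, 2.1 and 1.80 after 5-AC and 4.23, 4.72 and 4.54 in *ddm1*. The TSA arrays were below all Ws and *ddm1* arrays. The log2 change after TSA was -1.34 ± 0.22 against Ws (adjusted p = 0.0027) and -1.85 ± 0.22 against *ddm1* (adjusted p = 0.0002). This was the only member that the methods' t-test also called between TSA and *ddm1* (adjusted p = 0.047). That test called 124 higher and 225 lower of all 17129 probe sets. In 5-AC *ABCG23* was near the floor.

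The 4 full-size PDR genes among the members were all called lower after TSA against Ws. *ABCG29* (*PDR1*), a transporter of the monolignol p-coumaryl alcohol, measured 7.57, 7.67 and 7.34 in Ws, 6.17, 6.51 and 6.03 after TSA, 6.69, 6.93 and 6.74 after 5-AC, and 7.14, 7.91 and 7.60 in *ddm1*. Here the TSA arrays were the lowest of all 12. It fell by 1.28 ± 0.20 against Ws (adjusted p = 0.002) and by 1.31 ± 0.20 against *ddm1* (adjusted p = 0.0011). *ABCG29* was the only member of the 15 under-expressed after 5-AC that lay lower after TSA than after 5-AC, by a log2 difference of -0.55 ± 0.20, or -0.35 with arrays centred on reference genes.

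*ABCG34* (*PDR6*), known to secrete the phytoalexin camalexin, measured 9.88, 9.45 and 9.44 in Ws and 8.41, 8.20 and 8.56 after TSA. It reached 6.94, 7.07 and 7.47 after 5-AC and 9.32, 9.76 and 9.59 in *ddm1*. The order from low to high was 5-AC, TSA and then Ws with *ddm1*, with no overlap between these steps. Against Ws the TSA change was -1.20 ± 0.19 (2.29-fold, adjusted p = 0.0021), and against *ddm1* -1.17 ± 0.19 (adjusted p = 0.0016).

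*ABCG35* (*PDR7*) is a close relative of the defence transporter PEN3. It measured 8.34, 8.28 and 8.57 in Ws, 6.92, 6.30 and 7.44 after TSA, 4.70, 5.66 and 5.81 after 5-AC, and 8.48, 8.35 and 8.67 in *ddm1*. The groups held the same order as for *ABCG34*, with a wider spread in the treated arrays. The change after TSA was -1.51 ± 0.32 against Ws (2.85-fold, adjusted p = 0.0092) and -1.62 ± 0.32 against *ddm1* (adjusted p = 0.0049).

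*ABCG30* (*PDR2*), an importer of abscisic acid known from the embryo, was the least certain of the PDR genes. Its Ws arrays read 6.17, 5.99 and 4.86, the TSA arrays 4.22, 4.95 and 4.06, the 5-AC arrays 2.89, 3.85 and 3.09, and the *ddm1* arrays 5.20, 5.90 and 5.54. Ws array 3 lay below TSA array 2, so these groups overlapped. The change of -1.26 ± 0.38 against Ws only just passed (adjusted p = 0.049) and was lost without any of 4 arrays, TSA 1, TSA 3, Ws 1 or Ws 2 (changes of -1.02 to -1.17, adjusted p 0.12 to 0.17). Against *ddm1* it was -1.13 ± 0.38 and not called (adjusted p = 0.063), although it passed without TSA array 2 (-1.40, adjusted p = 0.049).

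**Figure D3:**
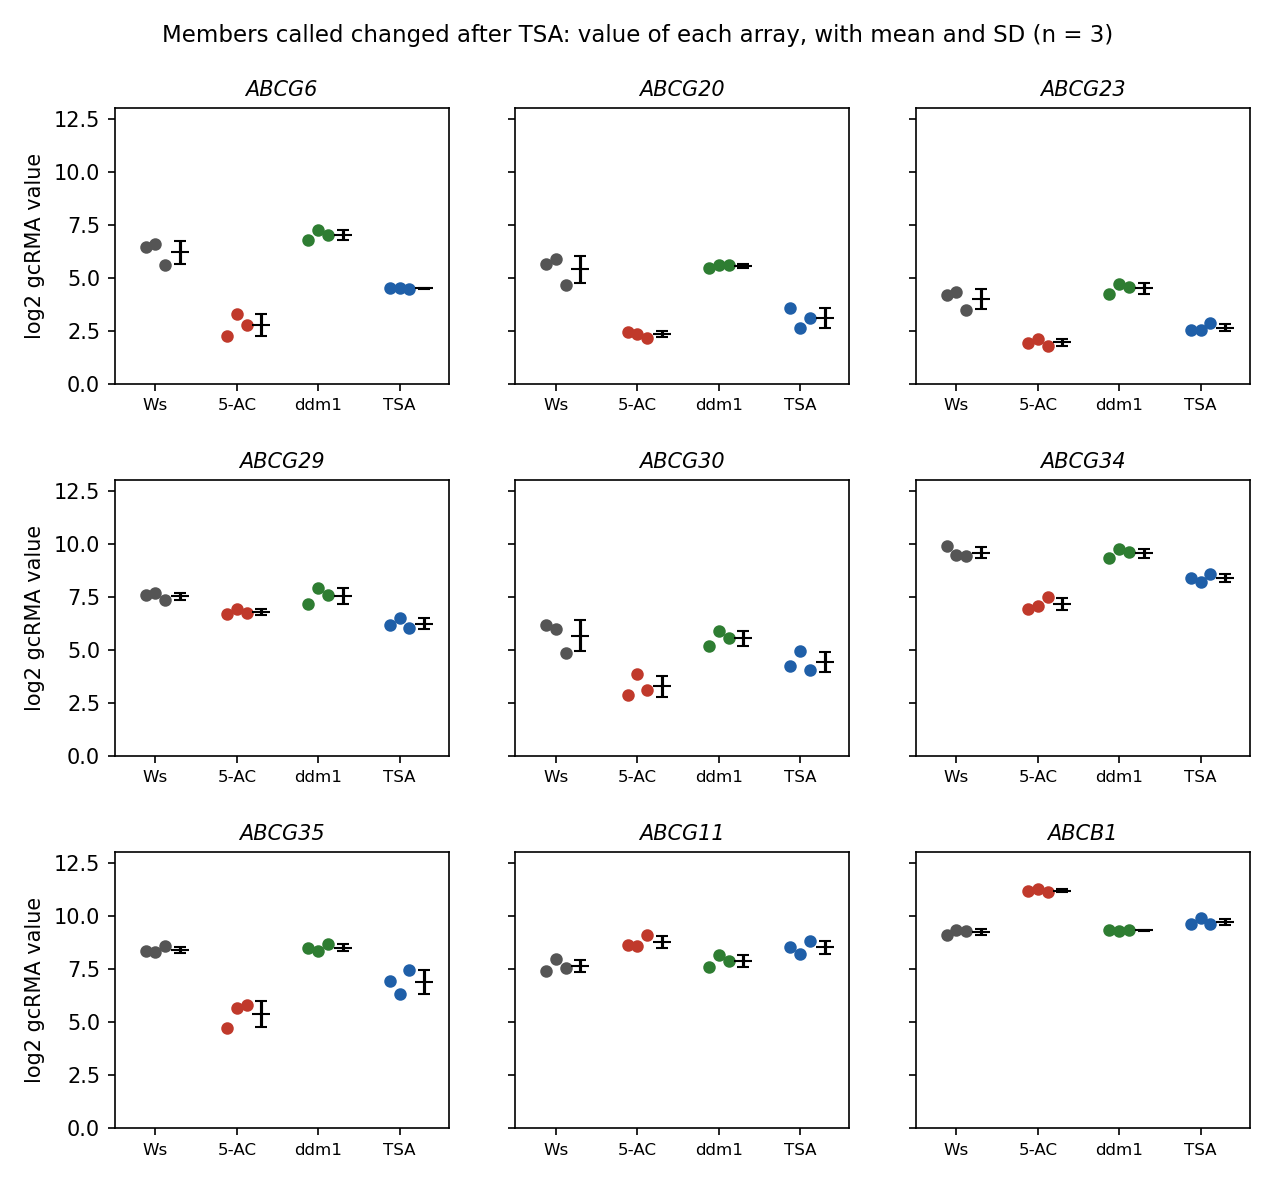
Log2 gcRMA value of each array (coloured points, replicates 1 to 3 from left to right) with the mean and SD of each group (black, n = 3) for the 9 ABC genes called between TSA and Ws. For *ABCG34* the TSA points (8.20 to 8.56) lie under all Ws points (9.44 to 9.88), whereas for *ABCG11* and *ABCB1* the TSA points lie above those of Ws.

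The genes of defence and secretion that act beside these transporters gave no common picture. Of a list of 9 indolic defence genes 4 were named, each through the study's lists of genes changed after 5-AC, and with all arrays none was called after TSA or in *ddm1*. Single arrays decided 2 of these: *SYP121*, a syntaxin gene of secretion at infection sites, differed by 1.50 ± 0.47 after TSA (adjusted p = 0.059) and passed without TSA 3 (1.93, adjusted p = 0.02) or Ws 1 (1.84, adjusted p = 0.048), and *CYP79B3* in *ddm1* passed without Ws 3 (-1.20, adjusted p = 0.039). On the sides of Ws that these lists fix, after 5-AC the camalexin enzymes *CYP71A13* (3.91 ± 0.42) and *CYP71A12* (2.80 ± 0.23) and *SYP121* (2.41 ± 0.47) stood above Ws and *CYP79B3*, which acts at the entry to indole glucosinolates, below it (-3.57 ± 0.28). Of 8 coumarin and iron genes listed 3 were named, each by the platform, and 2 were tested. After TSA 1 of these 2 was called lower and 0 higher, both against Ws and against *ddm1*. Of all probe sets 7.35% and 9.33% were lower there. Between 5-AC and Ws 1 was higher and 1 lower, beside 30.9% and 26.3%. The gene lower after TSA was *F6'H1*, the key enzyme of coumarin synthesis that roots use for iron uptake. *F6'H1* is also in the list of genes under-expressed after 5-AC. It was 2.89-fold lower after TSA than in Ws (-1.53 ± 0.27, adjusted p = 0.0035) and changed by -1.63 ± 0.27 against *ddm1* (adjusted p = 0.0016).

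Transporters of the cuticle divided by gene. *ABCG11*, which exports cutin and wax, measured 7.41, 7.98 and 7.53 in Ws, 8.56, 8.21 and 8.80 after TSA, 8.65, 8.60 and 9.09 after 5-AC, and 7.57, 8.15 and 7.87 in *ddm1*. Both treatments lay above Ws in every array. Against Ws it rose by 0.88 ± 0.22 after TSA (1.84-fold, adjusted p = 0.024), while against *ddm1* the difference was 0.65 ± 0.22 and not called (adjusted p = 0.069). The Ws call was lost without TSA 1 (0.86), TSA 3 (0.74), Ws 1 (0.77) or Ws 3 (0.83), with adjusted p of 0.066 to 0.092. Between TSA and 5-AC *ABCG11* differed by -0.26 ± 0.22, with a 95% interval of -0.75 to 0.24.

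*ABCG12* (*CER5*), the partner of *ABCG11* in wax export, held at 6.94, 7.13 and 7.01 in Ws, 6.87, 7.28 and 7.14 in *ddm1* and 7.25, 7.23 and 7.21 after TSA. It was 5.79, 5.91 and 5.80 after 5-AC, under all other arrays. The TSA difference from Ws was 0.20 ± 0.13, with an interval of -0.08 to 0.49 and no call. *ABCG13*, needed for the cuticle of flowers, lay at 2.37 to 2.88 in Ws, 2.35 to 2.57 in *ddm1* and 2.51 to 2.68 after TSA, and at 3.89, 4.60 and 4.74 after 5-AC. *ABCG5*, needed for a sealed cuticle in seedlings, lay at 4.15 to 4.63 in Ws, 4.13 to 4.67 in *ddm1* and 4.03 to 5.29 after TSA, and at 1.98 to 2.58 after 5-AC, near the floor. Of these 4 cuticle transporters 2 stood above and 2 below Ws after 5-AC, and TSA was called for *ABCG11* alone.

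Of 18 cuticle enzymes and carriers listed 6 were named and 5 tested. After TSA *CER2*, needed to elongate wax chains, was higher than in Ws (1.43 ± 0.35, adjusted p = 0.02), the call being lost without Ws 1 (1.34, adjusted p = 0.071) or Ws 2 (1.39, adjusted p = 0.061). *GPAT6*, an acyltransferase of cutin, was lower (-1.18 ± 0.24, adjusted p = 0.0079). *LTPG2*, a lipid transfer protein of the cuticle (0.69 ± 0.25), and *GPAT8*, also of cutin (0.36 ± 0.28), were not called, though *LTPG2* passed without TSA 1 (0.90, adjusted p = 0.045). After 5-AC *CER2* stood below Ws (-3.67 ± 0.35) and *GPAT6* above it (2.23 ± 0.24), the sides given by the lists that named them.

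Among ABCB genes *ABCB1*, an exporter of auxin from cells of stem and root, was above Ws in every array of both treatments. It measured 9.09, 9.33 and 9.29 in Ws, 9.64, 9.89 and 9.63 after TSA, 11.19, 11.27 and 11.14 after 5-AC, and 9.34, 9.30 and 9.34 in *ddm1*. TSA raised it 1.39-fold over Ws (0.48 ± 0.12, adjusted p = 0.022) and 1.31-fold over *ddm1* (0.39 ± 0.12, adjusted p = 0.046). The first call was lost without TSA 2 (0.40, adjusted p = 0.09) or Ws 1 (0.41, adjusted p = 0.088), and the second without any 1 of the 6 arrays (0.31 to 0.44, adjusted p 0.052 to 0.17). After 5-AC the difference was 1.96 ± 0.12, or 3.9-fold.

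Auxin carriers of other families stood on the opposite side after 5-AC. The carriers reported were named through the list of under-expressed genes, and *PIN4* (-3.67 ± 0.34), *PIN2* (-3.31 ± 0.35) and *LAX2* (-1.72 ± 0.29) were below Ws. After TSA *PIN2*, the efflux carrier of root tips, was called against Ws (-1.17 ± 0.35, adjusted p = 0.049), but its arrays overlapped with Ws (4.92, 4.77 and 6.38 beside 6.35, 6.33 and 6.89) and the call was lost without any array but TSA 3 (adjusted p 0.085 to 0.17).

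The other ABCB members had no call in *ddm1* or after TSA. *ABCB25*, the mitochondrial exporter that serves cytosolic iron-sulfur and molybdenum cofactor assembly, measured 7.02, 6.84 and 7.11 in Ws, 8.31, 8.54 and 8.49 after 5-AC, 7.0, 6.99 and 7.09 in *ddm1* and 7.08, 7.23 and 6.97 after TSA. Arrays of *ddm1* and TSA overlapped with Ws, with differences of 0.04 ± 0.13 and 0.10 ± 0.13. *ABCB13* was at 2.45 to 2.46 in Ws, near the floor, and at 5.85, 5.64 and 5.79 after 5-AC.

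*ABCB13* shared this pattern with *ABCA10* and *ABCE1*, which were near the floor in Ws, and near it after TSA as well. *ABCA10* read 2.21 to 2.22 in Ws, 2.14 to 2.21 in *ddm1* and 2.24 to 2.29 after TSA, but 5.99, 5.63 and 5.33 after 5-AC. *ABCE1*, whose protein family recycles ribosomes, read 2.39 to 2.46 in Ws, 2.38 to 2.40 in *ddm1* and 2.42 to 2.62 after TSA, but 6.60, 7.23 and 6.39 after 5-AC. All 3 stood above Ws on each 5-AC array. With Ws near the floor no size is given for these differences, and these 3 and *ABCG13* passed the filter on low values only through their 5-AC arrays. Neither *ddm1* nor TSA was called for any of the 4.

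*ABCF5*, the other soluble member, went the other way with 10.09, 10.58 and 10.00 in Ws, 8.41, 8.05 and 8.66 after 5-AC, 10.05, 10.42 and 10.26 in *ddm1* and 10.00, 10.40 and 9.63 after TSA. It was 3.6-fold lower after 5-AC and overlapped with Ws in the other groups.

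All 3 ABCC genes stood above Ws after 5-AC. *ABCC4* (*MRP4*), a folate transporter that also acts in stomata, measured 8.44, 8.87 and 8.79 in Ws, 10.45, 10.49 and 10.22 after 5-AC, 8.54, 8.59 and 8.87 in *ddm1* and 8.76, 8.91 and 8.27 after TSA. *ABCC6* measured 4.50, 4.41 and 4.77 in Ws, 6.57, 5.91 and 6.60 after 5-AC, 4.95, 4.91 and 5.20 in *ddm1* and 5.07, 5.64 and 4.79 after TSA. Its Ws arrays were below all others, but neither *ddm1* (0.46 ± 0.24, adjusted p = 0.85) nor TSA (0.61 ± 0.24, adjusted p = 0.12) was called.

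*ABCC7*, whose gene is next to *ABCC6* on the chromosome, measured 4.95, 4.96 and 4.54 in Ws, 7.56, 6.67 and 7.07 after 5-AC, 5.69, 5.59 and 5.84 in *ddm1* and 5.33, 5.82 and 4.33 after TSA. In *ddm1* all 3 arrays exceeded all 3 of Ws, and the difference of 0.89 ± 0.34 was the widest of any member in the mutant, but it was not called (adjusted p = 0.54, 95% interval 0.15 to 1.64).

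No gene of the subfamilies ABCD and ABCI was called against Ws in *ddm1* or after TSA. *ABCI8* (*SUFB*), part of the plastid iron-sulfur scaffold, measured 9.91, 10.18 and 9.98 in Ws and 9.53, 9.45 and 9.61 after 5-AC, the smallest difference among the members (-0.49 ± 0.18) and thus the one nearest the limit of the lists. Genes just outside that limit were not analysed here. *ABCI14* (*TGD1*), a subunit of the lipid importer of the plastid, measured 7.28, 7.12 and 7.51 in Ws, 8.45, 8.43 and 8.15 after 5-AC and 7.57, 7.52 and 7.70 after TSA. It was the only ABCI member above Ws after 5-AC, and its TSA difference was 0.29 ± 0.14 (adjusted p = 0.19).

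The 3 remaining ABCI genes stood below Ws after 5-AC. *ABCI11*, a plastid protein, lay at 3.11, 3.33 and 3.41 in Ws and 2.26, 2.52 and 2.2 after 5-AC, near the floor, and reached 3.30, 4.56 and 3.52 after TSA, where array 2 stood apart. Between TSA and *ddm1* it differed by 0.82 ± 0.30 (adjusted p = 0.083) and passed without TSA 1 (1.07, adjusted p = 0.044). *ABCI16* lay at 5.27 to 5.69 in Ws, 3.31 to 3.91 after 5-AC, 4.65 to 5.48 in *ddm1* and 5.45 to 6.47 after TSA. Its difference between TSA and *ddm1* was 0.86 ± 0.28 (adjusted p = 0.059), which passed without *ddm1* array 1 (1.05, adjusted p = 0.046) or TSA 2 (1.11, adjusted p = 0.027). *ABCI17*, related to a rice protein of aluminium tolerance, lay at 7.51 to 7.87 in Ws, 6.37 to 6.73 after 5-AC, 7.68 to 7.83 in *ddm1* and 7.60 to 7.71 after TSA.

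*ABCD2*, a half-size relative of the peroxisomal fatty acid transporter, measured 7.17, 7.27 and 6.83 in Ws, 5.98, 5.61 and 5.79 after 5-AC, 6.82, 6.79 and 6.47 in *ddm1* and 7.37, 7.22 and 7.16 after TSA. TSA was higher than *ddm1* by 0.55 ± 0.16 (adjusted p = 0.036), a call lost without any 1 of the 6 arrays (0.44 to 0.62, adjusted p 0.051 to 0.15), and neither group was called against Ws. Of 6 peroxisomal beta-oxidation genes listed 4 were named, all of them in the list of genes over-expressed after 5-AC, which fixed their side of Ws there, among them *MFP2* (1.38 ± 0.16) and *KAT2* (1.09 ± 0.14), and none was called after TSA or in *ddm1* on all arrays (*LACS7* passed after TSA without TSA 3, at 0.74 with adjusted p = 0.047). Of the iron-sulfur partners of *ABCB25* and *ABCI8*, the mitochondrial scaffold gene *ISU1* was higher after 5-AC (1.69 ± 0.17, adjusted p = 9.3e-06), the plastid gene *HCF101* was lower (-1.28 ± 0.43, adjusted p = 0.026), and the plastid desulfurase gene *NFS2* was not called (0.38 ± 0.21). The *HCF101* call was lost without Ws array 2 (-1.04, adjusted p = 0.097) and shrank to -0.65 (adjusted p = 0.042) without 5-AC array 3. These 3 were named by the platform, although *ISU1* is also in the list of genes over-expressed after 5-AC.

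Across the 26 genes in *ddm1*, log2 differences from Ws ran from -0.39 to 0.89 with a median of 0.03, beside -0.03 over all probe sets tested. For 18 genes the difference was under 0.2 in size, and for 23 the 95% interval lay within 1 log2 unit of 0. Both counts include *ABCA10*, *ABCB13*, *ABCE1* and *ABCG13*, which passed the filter on low values only through their 5-AC arrays. Arrays did not overlap for 5 of 26, beside 17.1% of all probe sets, and these 5 include *ABCA10*, near the floor in both groups. The 4 members with an unadjusted p below 0.05 were *ABCG6*, *ABCC7*, *ABCG23* (0.51 ± 0.22) and *ABCD2* (-0.39 ± 0.16). Across the same genes TSA differed from Ws with a median of 0.04 beside 0.02, and 13 of the 26 did not overlap, beside 34.7% of all probe sets. The genes without overlap include *ABCA10* and *ABCB13*, which were near the floor in both Ws and TSA. The 17 members not called after TSA differed from Ws by -0.38 to 0.61, and the interval lay within 1 log2 unit of 0 for 13 of them. *ABCA10*, *ABCB13*, *ABCE1* and *ABCG13* are again among these 13.

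**Figure D4:**
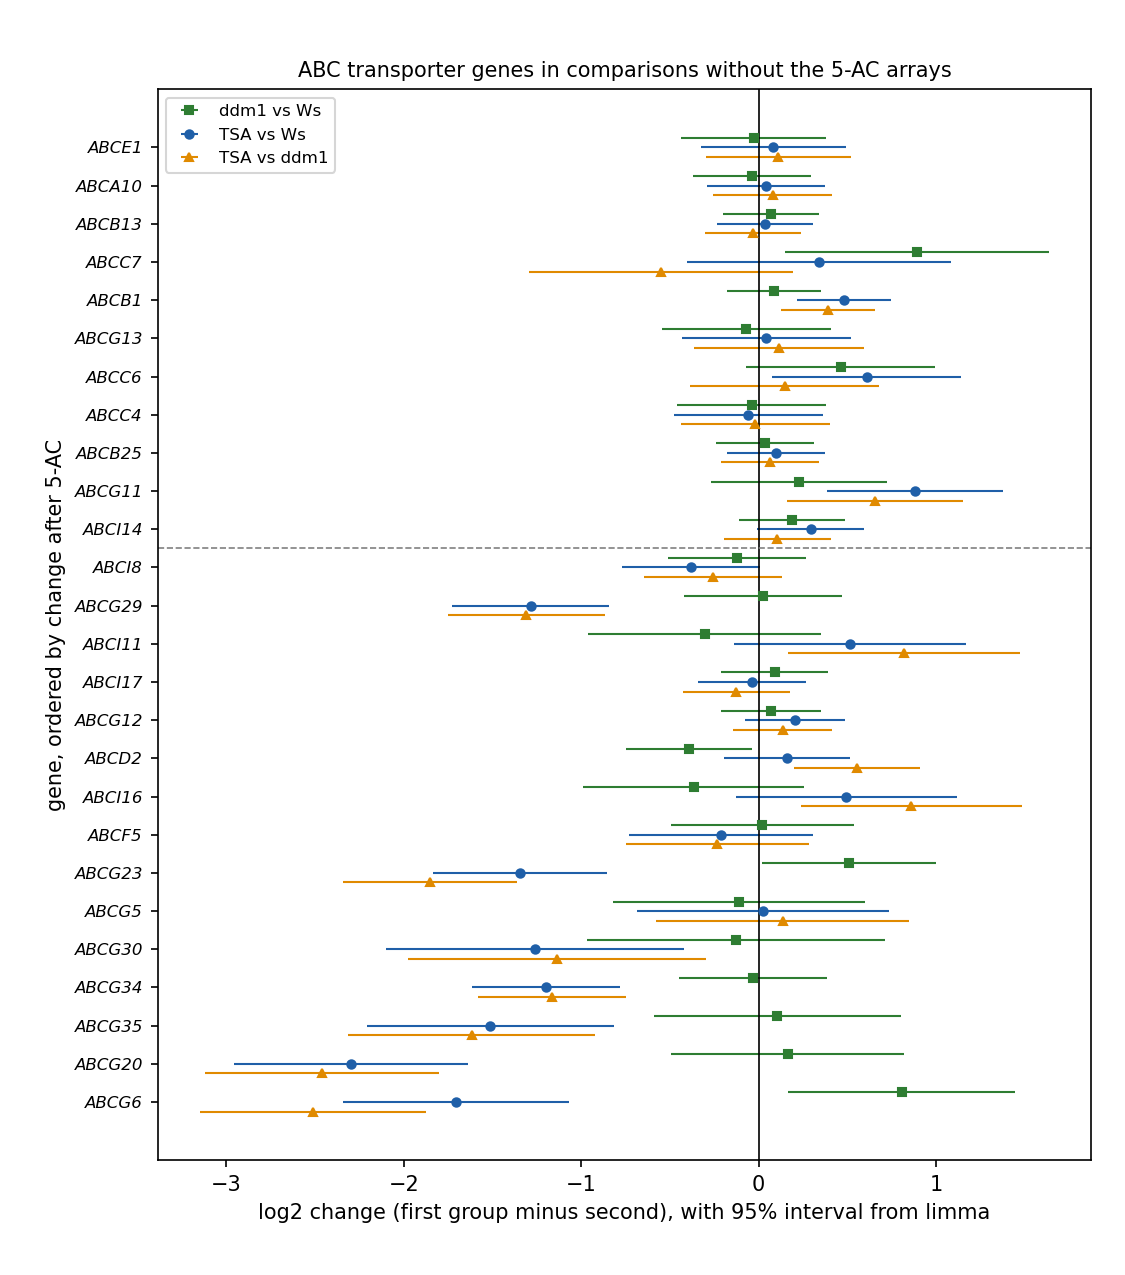
Log2 change of each ABC gene (rows, in the order of the difference between 5-AC and Ws, with the dashed line between those above and those below Ws) in *ddm1* against Ws (squares), TSA against Ws (circles) and TSA against *ddm1* (triangles), with 95% intervals from limma. Square markers stay between -0.39 and 0.89, while the circles of *ABCG6*, *ABCG20*, *ABCG23*, *ABCG29*, *ABCG30*, *ABCG34* and *ABCG35* lie between -1.20 and -2.30.

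Of the 11 ABCG members 7 were called lower and 1 higher after TSA against Ws, with a median change of -1.26. Of all probe sets tested, 7.35% were called lower and 7.14% higher. Against *ddm1* 6 were lower and 0 higher, with a median of -1.17, beside 9.33% lower and 8.53% higher of all probe sets. After 5-AC 9 of the 11 stood below Ws, the side that the naming lists fix. The share called after TSA among all genes of these lists was not counted. The ABCG counts are therefore not read as a trait of the subfamily. Of the other 15 members, 1 was called against Ws and 2 against *ddm1*. Arrays of TSA and *ddm1* did not overlap for 12 of the 26, beside 44.5% of all probe sets, and these 12 include *ABCA10*, near the floor in both groups. Called against both Ws and *ddm1* were 6 lower genes, *ABCG6*, *ABCG20*, *ABCG23*, *ABCG29*, *ABCG34* and *ABCG35*, and 1 higher, *ABCB1*. Under the omission of any 1 array these 6 kept their calls in both comparisons, with adjusted p up to 0.035 against Ws and up to 0.024 against *ddm1*. The methods' t-test, with adjusted p of 0.15 to 0.26 for them, called none against Ws, beside 4 higher and 4 lower of all 17129 probe sets. Without Ws array 1 the count against Ws was 6 lower and 0 higher. By the lists through which they were named, the 15 under-expressed genes gave 6 lower and 1 higher between TSA and *ddm1*, and the 11 over-expressed genes 1 higher. Between TSA and Ws the 15 gave 7 lower and 0 higher, and the 11 gave 2 higher and 0 lower.

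TSA and 5-AC are set side by side without a test, because the 5-AC arrays had served to name the members. After TSA 14 members stood above and 12 below their 5-AC means. Of all probe sets tested, 53.3% were called between these groups (23.9% higher and 29.4% lower after TSA), from which nothing is read for the members. Below 5-AC were *ABCC7* (-1.94 ± 0.34), *ABCC4* (-1.74 ± 0.19) and *ABCB1* (-1.48 ± 0.12), and above it *ABCI16* (2.28 ± 0.28), *ABCG6* (1.74 ± 0.29), *ABCF5* (1.64 ± 0.23) and *ABCG35* (1.50 ± 0.32). *ABCI8* differed by 0.11 ± 0.18, with an interval of -0.28 to 0.50. No size is given for *ABCE1*, *ABCA10*, *ABCB13* and *ABCG13*, which were near the floor after TSA, nor for *ABCG5*, *ABCG20*, *ABCG23* and *ABCI11*, which were near it after 5-AC.

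The same holds between 5-AC and *ddm1*, where 11 members stood above and 15 below *ddm1* after 5-AC, the split that the naming lists give, and 56.6% of all probe sets were called (30.8% higher and 25.8% lower). Below *ddm1* were *ABCG6* (-4.25 ± 0.29) and *ABCG35* (-3.11 ± 0.32), while *ABCB1* (1.87 ± 0.12) and *ABCC4* (1.72 ± 0.19) stood above. *ABCI8* differed by -0.37 ± 0.18. Centred on the reference genes *SAND*, *UBC21* and *TIP41L*, no member changed sign in a comparison that called it. These genes were not all stable after 5-AC, where *TIP41L* differed from Ws by 1.14, *UBC21* by -0.52 and *SAND* by 0.14. *TIP41L* is in the list of genes over-expressed and *UBC21* in that of genes under-expressed after 5-AC.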

How the data were processed

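The authors computed the deposited log2 values with gcRMA, which adjusts background by probe sequence, normalises quantiles between arrays and gives 1 value per probe set. Their present calls and their own fold changes and p-values were not used. The number of arrays, 3 per group and called biological replicates in the methods, limits the precision.

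The array holds 22810 probe sets, 64 of them controls, which were dropped. The 17129 whose value in second place over the 12 arrays was at least 3 were tested, with all 26 members among them. The limma package (3.58.1, under R 4.3.3) served for linear models over the 12 arrays together, with a coefficient for each group, moderated variances and two-sided tests. P-values were adjusted by Benjamini-Hochberg over all probe sets tested, with a threshold of 0.05, and the code was tested on simulated data first. Errors are SE and intervals are 95%. The methods' t-test is the unequal-variance test per probe set.

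The platform's annotation names 13513 probe sets for 1 gene and the study's lists 1701 more, through loci and RefSeq symbols (TAIR10.1). The copies of these lists used here are shortened. Tables were joined with pandas 2.3.3 in Python 3.11.15 and plots drawn with matplotlib 3.10.9. Members and gene lists were chosen with earlier results of these data known. Named genes follow a rule: members of role groups, the 10 highest and 10 lowest changes past the threshold without overlap, 4 genes per partner list, and markers. *ASFT*, *LACS7* and *ABCI17* were named beside it after their values were seen. Same-numbered arrays deviated together at r over 0.1 in 13 of 18 pairs (-0.0844 to 0.521), in all 3 pairs between *ddm1* and Ws, *ddm1* and 5-AC, and TSA and 5-AC, but not between TSA and Ws or *ddm1*. The labels name no shared batch, and the block, run as an alternative, changed no call of a member between *ddm1* and Ws. Comparisons with the 5-AC arrays were planned as tests and are given as descriptions of the members. Alternatives covered the test, the filter, the arrays fitted, the replicate block, 2 centrings, probe set type, an intensity trend and the omission of each array. The result of 1 gene of the partner lists is not reported here.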

Additional observations from a re-analysis of the deposited data

How the results depend on the processing

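No result changed direction with a call under any alternative run. By the methods' t-test the members called fell from 9 to 0 for TSA against Ws, from 24 to 14 for TSA against 5-AC and from 8 to 1 for TSA against *ddm1*, and the cause was not tested. Calls over all 17129 probe sets fell as well. For TSA against Ws they went from 1223 higher and 1259 lower to 4 and 4. For TSA against 5-AC they went from 4098 and 5029 to 1570 and 1817, and for TSA against *ddm1* from 1461 and 1598 to 124 and 225. The counts that use the 5-AC arrays are descriptions, since these arrays named the members. Leaving out each array in turn gave 24 to 26 for 5-AC against Ws, where *ABCI8* and *ABCI11* dropped out of the count for single omissions, 0 in each case for *ddm1* against Ws, 6 to 8 for TSA against Ws, 20 to 23 for TSA against 5-AC, 24 to 25 for 5-AC against *ddm1* and 6 to 8 for TSA against *ddm1*. With the replicate block the counts were 26, 0, 9, 24, 25 and 10 in the same order. Between TSA and *ddm1* the block added calls of *ABCG30* (adjusted p = 0.02), *ABCI11* (0.027) and *SYP121* (0.019), and between TSA and Ws it added *SYP121* (0.022) and left *FAR5* (0.053) and *ASFT* (0.058) uncalled. Fitting only the arrays of the groups compared left 6 for TSA against Ws, beside 809 higher and 833 lower of all probe sets tested. For TSA against *ddm1*, where this fit leaves Ws and 5-AC out of the spread, it gave 1 higher and 7 lower. Of all probe sets tested 1504 were higher and 1565 lower there. Centring on 3 reference genes gave 26, 0, 8, 23, 26 and 6. It moved the share of higher among all calls from 54.0% to 39.0% for 5-AC against Ws, from 49.3% to 39.1% for TSA against Ws and from 44.9% to 57.9% for TSA against 5-AC, and the median of all probe sets from 0.05 to -0.20 for 5-AC against Ws. Of the reference genes *TIP41L* (1.14) and *UBC21* (-0.52) themselves differed between 5-AC and Ws, so they are no stable reference there. The stricter filter, at least 5, kept 22 members. Among members called between TSA and Ws, *ABCB1*, *ABCG11* and *ABCG30* lost their call under settings other than the t-test. Values near the floor, for 3 members each in Ws and *ddm1* and 4 each after 5-AC and TSA, limit what can be said of the size of their differences.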
